A study of Mus musculus with 16 samples.

Results

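Transcript levels of 10 genes of astrocytes and Bergmann glia were examined in mouse cortex and cerebellum: Slc1a2, Slc1a3, Gja1, Gjb6, Aqp4, Gfap, S100b, Aldh1l1, Gdf10 and Hopx. The genes were chosen by name as known genes of these cells, with earlier results of these data known. Each name matched 1 entry among the 37583 genes of the deposited tables. RNA was sequenced from 8 mice on the C57BL/6J strain, with 1 cortex (CTX) and 1 cerebellum (CBLM) library from each mouse, which share the mouse's number in their names. Of these mice, 4 were wild type and 4 carried Slc39a8 A391T (A393T), a missense mutation in a metal ion transporter, and each genotype had 4 libraries per region. The study's methods describe male wild-type mice of 12 weeks, frontal cortex taken by blunt dissection, brains that were not perfused, and RNA from 1 hemisphere. The age and sex of the A391T mice, and whether their alleles were both mutant, were not given in the sources used here. The labels name no treatment. Each library is bulk tissue, in which fewer cells of a type and less RNA per cell cannot be told apart.

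Astrocytes take up glutamate and potassium released by neurons, move water at the blood vessel wall, and form a network joined by gap junctions. Bergmann glia are astrocytes of the cerebellar cortex. Their cell bodies lie among Purkinje cells, and their processes span the molecular layer and wrap the synapses of parallel and climbing fibres.

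Between 20813432 and 30497206 reads were counted on genes per library, and all 10 genes passed the filter on low counts in every comparison. Their counts ran from 145 for Gdf10 in cortex to 73506 for Slc1a2 in cortex. Levels are given in TPM, that is counts per deposited gene length as parts of a fixed sum, and differences as log2 fold changes from the quasi-likelihood test of edgeR, with p-values adjusted after Benjamini and Hochberg over every gene that entered the test. The fit rescales libraries by trimmed mean of M-values (TMM) factors, and TPM does not. Log2 ratios of mean TPM between cerebellum and cortex were therefore a median of 0.15 above the fitted values in wild type and 0.10 above them in A391T, which matters for genes that differed little.

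The tissue labels matched their markers, since 5 of 5 granule cell and 5 of 5 Purkinje cell markers were higher in wild-type cerebellum and 4 of 4 measured cortical excitatory neuron markers were higher in wild-type cortex. Slc39a8 itself, which the mutation alters by 1 residue, was at 2.14 ± 0.579 TPM in wild-type and 2.46 ± 0.361 TPM in A391T cortex (SD, n = 4), and a transcript count does not check a missense mutation. The deposited RPKM table gave 8 of its 16 columns, those of 4 mice, the name of another mouse of the other genotype. The files do not show which names are right. The names of the count files are used here, and genotype values are given under both. The region comparison over all 8 mice uses the same libraries under either naming, and since its fit holds genotype groups its values moved slightly, Gfap from 0.59 to 0.60 and Hopx from 2.13 to 2.14, while 9 of 10 genes passed under both. The A391T cerebellum library CBLM445 stood apart, with 18.1% of genes over 0.5 log2 units from the mean of the cerebellum libraries against at most 4.73% in any other library measured against its own region. Genes of 8000 bases or more had a median deviation of -0.19 in CBLM445 and of -0.21 in the wild-type cortex library CTX480, and genes under 2000 bases one of 0.09 and 0.12. CTX480 also had the highest S100b, Hopx and Gjb6 of the wild-type cortex libraries.

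**Figure D1:**
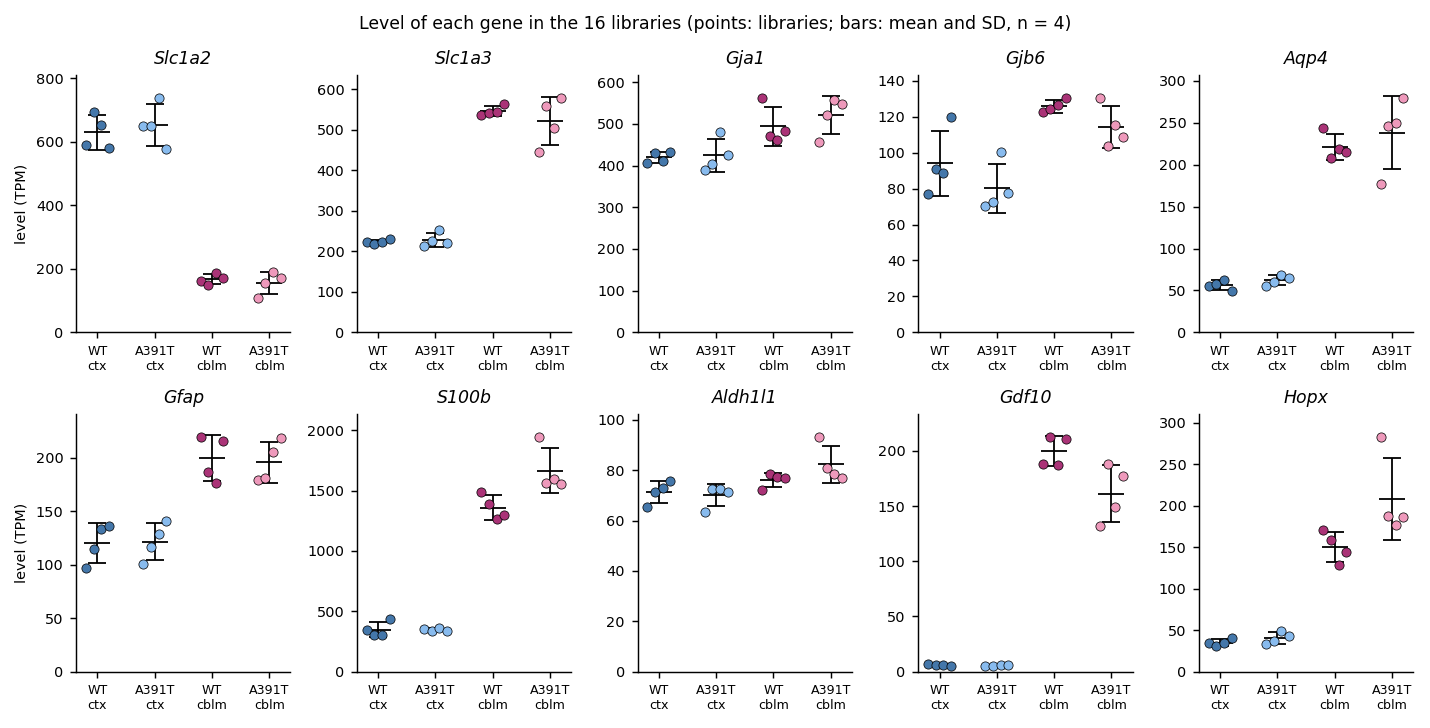
Level of each gene (TPM, vertical axes starting at 0) in the 16 libraries, by genotype and region (WT, wild type; ctx, cortex; cblm, cerebellum); points are libraries and bars the mean and SD of 4. Slc1a2 alone was lower in cerebellum, Gdf10 was near 0 in cortex, and CBLM445, of A391T, was the highest for S100b and Hopx.

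In wild-type mice 6 of the 10 genes differed between the regions by 2-fold or more with an adjusted p under 0.05, the rule for a called gene. Gdf10, Hopx, Aqp4, S100b and Slc1a3 were higher in cerebellum and Slc1a2 was lower. The same rule called 24.7% of all 16040 genes tested, 10.5% as higher and 14.2% as lower. A seventh gene, Gfap, passed the adjusted p with a smaller difference, making 7 of 10 where 67.8% of all genes passed. Of the 10 genes 6 passed as higher, where 34.7% of all genes did, and 1 as lower, where 33.1% did. The median log2 fold change of the 10 genes was 0.86, against 0.02 over all genes tested. Since the genes were chosen with earlier results known, these shares are no test of the group. Libraries of the regions did not overlap in TPM for 9 of the 10 genes, as for 65.9% of all genes, and Aldh1l1 was the exception.

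The glutamate transporters moved in opposite directions. Slc1a2 (ENSMUSG00000005089; NCBIM37 chr2:102498816-102630941, plus strand) encodes GLT-1, the transporter that removes most glutamate in the forebrain. Slc1a3 (ENSMUSG00000005360; NCBIM37 chr15:8584124-8660764, minus strand) encodes GLAST, the main glutamate transporter of Bergmann glia. In wild-type cortex Slc1a2 was at 591, 693.9, 653.3 and 579.1 TPM in libraries CTX447, CTX448, CTX479 and CTX480, and in cerebellum at 161, 149.8, 187.9 and 171.2 TPM in CBLM447, CBLM448, CBLM479 and CBLM480 of the same mice. Every cortex library was far above every cerebellum library. The fitted log2 fold change of cerebellum over cortex was -2.06 (SE 0.08, adjusted p = 1.6e-09), a 4.18-fold lower level. Slc1a3 was at 223.8, 218.3, 223.7 and 230.5 TPM in the cortex of those mice and at 537.8, 541.3, 544 and 563.9 TPM in their cerebellum. Its libraries were the most alike of the 10 genes within each region of wild-type mice, with a coefficient of variation of 2.23% in wild-type cortex and 2.14% in wild-type cerebellum. The log2 fold change was 1.13 (SE 0.05, adjusted p = 9.2e-09).

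The ratio of Slc1a3 to Slc1a2 within a library does not depend on how libraries are scaled to each other. In TPM it was 0.355 ± 0.0288 in cortex (SD, n = 8, range 0.315 to 0.398) and 3.36 ± 0.436 in cerebellum (SD, n = 8, range 2.67 to 4.09). The ratio was below 1 in 8 of 8 cortex libraries and above 1 in 8 of 8 cerebellum libraries. It was 9.42-fold higher in cerebellum, a mean log2 difference within mice of 3.24 ± 0.243 (SD), higher in 8 of 8 mice, with p = 0.0078 in a two-sided exact sign-flip permutation test, the smallest it can give for 8 pairs. With the exon lengths of the GENCODE annotation in place of the deposited lengths the ratios were 0.401 and 3.79.

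**Figure D2:**
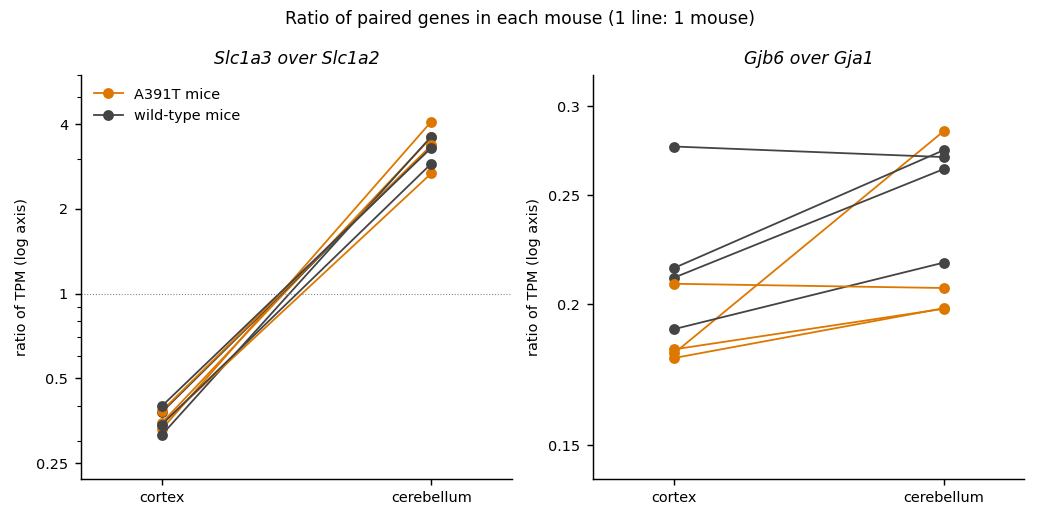
Ratio of TPM values of Slc1a3 to Slc1a2 (left) and Gjb6 to Gja1 (right) in cortex and cerebellum, on log axes of different range, with 1 line per mouse. The first ratio crossed 1 in all 8 mice, from 0.315 to 0.398 in cortex to 2.67 to 4.09 in cerebellum, while the second rose in 6 of 8 mice.

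The promoters of these transporters are shown because the genes moved apart, with that of Gdf10, the gene that differed most. Each is the 250 bases before a RefSeq transcript start, written 5′ to 3′ on the gene's strand in GRCm38.p6, and capitals mark matches to 5 motifs, each searched on both strands. The TATA box was searched as TATAAA and the site of NFI factors as TTGGCA. The site of SOX factors was searched as ACAATG and that of STAT factors as TTCNNNGAA. The GC box was searched as GGGCGG.
Slc1a2, chr2:102706188-102706437, plus strand: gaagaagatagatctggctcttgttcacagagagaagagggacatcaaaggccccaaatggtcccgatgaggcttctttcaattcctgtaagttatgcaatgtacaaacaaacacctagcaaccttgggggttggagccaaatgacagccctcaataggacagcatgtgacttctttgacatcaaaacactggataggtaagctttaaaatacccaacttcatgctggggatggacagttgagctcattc
Slc1a3, chr15:8710808-8711057, minus strand: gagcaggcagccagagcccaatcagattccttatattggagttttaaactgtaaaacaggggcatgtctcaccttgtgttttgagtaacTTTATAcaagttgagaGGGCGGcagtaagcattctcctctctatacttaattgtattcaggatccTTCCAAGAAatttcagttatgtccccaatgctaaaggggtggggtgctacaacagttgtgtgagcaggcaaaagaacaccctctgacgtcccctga
Gdf10, chr14:33923337-33923586, plus strand: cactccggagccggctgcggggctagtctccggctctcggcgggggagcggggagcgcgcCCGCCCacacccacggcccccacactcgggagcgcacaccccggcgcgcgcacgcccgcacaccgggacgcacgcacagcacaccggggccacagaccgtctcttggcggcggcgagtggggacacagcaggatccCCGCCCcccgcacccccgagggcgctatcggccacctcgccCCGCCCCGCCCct
The Slc1a2 window held none of the motifs and 1 CpG. The Slc1a3 window held a reverse TATAAA at -161, a GGGCGG at -145 and a TTCNNNGAA at -96. The Gdf10 window held GGGCGG on the reverse strand at -190, -54, -13 and -8, the last 2 sharing a base, and 35 CpGs. Over 32851 RefSeq promoters, each 250 bases before to 50 after a start, GGGCGG was present in 35.7%, TTGGCA in 14.1%, TATAAA in 13.6%, ACAATG in 12.6% and TTCNNNGAA in 8.3%. A match is a description of letters and not a bound site.

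The connexins differed little between the regions. Gja1 (ENSMUSG00000050953; NCBIM37 chr10:56097106-56110225, plus strand) encodes connexin 43 and Gjb6 (ENSMUSG00000040055; NCBIM37 chr14:57742140-57752448, minus strand) connexin 30, the channel proteins of astrocyte gap junctions. Gja1 was at 405.1, 429.4, 412.1 and 433 TPM in wild-type cortex (mice in the same order) and at 562.1, 470.5, 460.6 and 482.5 TPM in wild-type cerebellum. These TPM values did not overlap, but the fitted log2 fold change was 0.08 (95% interval -0.06 to 0.23, adjusted p = 0.33). Gjb6 was at 76.98, 90.7, 88.75 and 119.6 TPM in wild-type cortex and at 122.4, 124.1, 126.3 and 130.4 TPM in wild-type cerebellum, where it varied least after Slc1a3. CTX480 was close to the cerebellum libraries and the other 3 were not. The log2 fold change was 0.27 (SE 0.11, adjusted p = 0.053), and it passed with the mouse as a block (0.29, adjusted p = 0.03), with edgeR's exact test (adjusted p = 0.041), with no filter on low counts (adjusted p = 0.04) and without CTX480 (0.41, adjusted p = 7.8e-05). Under the names of the RPKM table it was 0.16 (adjusted p = 0.24). Scaling by library totals, which moved the median of all genes by 0.11, let both connexins pass in wild type, with 0.38 for Gjb6 and 0.20 for Gja1. Over all 8 mice both genes passed, Gjb6 with 0.35 (SE 0.09, adjusted p = 0.0026) and Gja1 with 0.15 (SE 0.05, adjusted p = 0.02), and their libraries overlapped between the regions. Gja1 over 8 mice no longer passed without CBLM447 (0.09, adjusted p = 0.09), CBLM461 (0.12, adjusted p = 0.067) or CBLM462 (0.12, adjusted p = 0.06).

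The TPM ratio of Gjb6 to Gja1 averaged 0.206 ± 0.0321 over the cortex libraries and 0.239 ± 0.0373 over the cerebellum libraries (SD, n = 8). It was higher in cerebellum in 6 of 8 mice, a mean log2 difference of 0.22 ± 0.223 (SD), with p = 0.031 in the two-sided exact sign-flip permutation test. The difference moved to 0.16 with p = 0.062 in that exact test without the mouse of CTX445. It also failed the threshold without the mouse of CTX446, CTX447, CTX448, CTX462 or CTX479, with p = 0.062 in each exact test, and passed it without that of CTX461 or CTX480. The deposited length of Gja1 is 1531 bases where the annotation has 3105 exon bases, so that the level of this ratio, but not its difference between regions, depends on the length used.

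Aqp4 (ENSMUSG00000024411), which encodes the water channel of astrocyte endfeet, was at 55.87, 57.8, 62.47 and 48.83 TPM in wild-type cortex and at 244.1, 208.2, 218.3 and 215.7 TPM in wild-type cerebellum (mice in the same order). The groups were far apart, and the log2 fold change was 1.83 (SE 0.08, adjusted p = 4.3e-09), a 3.55-fold higher level. Of the 9 other genes listed for potassium, water and bicarbonate handling, 7 were higher and 1 lower in wild-type cerebellum with an adjusted p under 0.05, and 2 of them were called. Of all genes 67.8% passed and 24.7% were called. The called genes of this list were Slc4a4, a sodium bicarbonate cotransporter, with a log2 fold change of 1.59 (adjusted p = 3.9e-09), and Atp1b2, a beta subunit of the sodium pump, with 1.55 (adjusted p = 1.6e-09). Choroid plexus and ependyma also express water and ion transport genes. Of their 6 markers, 6 were higher in wild-type cerebellum, and their summed level ran from 18.9 to 70.4 TPM in wild-type cortex and from 59.4 to 8110 TPM in wild-type cerebellum. No marker had a group mean of 0, and Ttr, the most abundant, was at a mean of 16 TPM in wild-type cortex and 5040 TPM in wild-type cerebellum. In the cerebellum libraries with little of this signal, CBLM479 (59.4 TPM) and CBLM462 (64 TPM), Aqp4 was at 218.3 and 279.6 TPM. The part of choroid plexus in the difference was not tested.

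Gfap (ENSMUSG00000020932; NCBIM37 chr11:102748650-102762226, minus strand) encodes the intermediate filament protein of astrocytes, and S100b (ENSMUSG00000033208; NCBIM37 chr10:75716598-75723904, plus strand) a calcium-binding protein that oligodendrocytes also make. Gfap was at 96.85, 115, 133.8 and 136.1 TPM in wild-type cortex and at 219.3, 187.1, 176.5 and 216.2 TPM in wild-type cerebellum (mice in the same order). No library overlapped, though the mouse of CTX447 and CBLM447 had the lowest cortex and the highest cerebellum value. Its log2 fold change was 0.58 (SE 0.11, adjusted p = 6.9e-04), a 1.5-fold higher level. S100b was at 341.3, 305.6, 307.5 and 436.3 TPM in wild-type cortex and at 1489, 1388, 1262 and 1300 TPM in wild-type cerebellum. It was the most abundant of the 10 transcripts per length in every cerebellum library, and the lowest cerebellum library was well above the highest cortex library. The log2 fold change was 1.82 (SE 0.12, adjusted p = 1.5e-07), a 3.52-fold higher level. Of 10 oligodendrocyte markers 1 was higher, 2 were lower and 7 did not pass in wild type, and their summed level was 4160 to 4520 TPM in cortex and 3930 to 5600 TPM in cerebellum. The part of oligodendrocytes in the S100b difference was not tested.

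Aldh1l1 (ENSMUSG00000030088; NCBIM37 chr6:90436421-90550197, plus strand), which encodes an enzyme of folate metabolism and is widely used to mark astrocytes, was at 65.32, 71.45, 72.94 and 75.77 TPM in wild-type cortex and at 72.12, 78.65, 77.19 and 76.76 TPM in wild-type cerebellum. These ranges overlapped. The log2 fold change was -0.06 (95% interval -0.18 to 0.06, adjusted p = 0.42), an interval that leaves out a change of 2-fold in either direction. Scaling by library totals turned this value to 0.06, and under it Aldh1l1 passed in A391T mice (0.27, adjusted p = 0.028) and over 8 mice (0.16, adjusted p = 0.018). Of its exon bases 11.1% are shared with Gm15756 on the opposite strand. The deposited counts are named as not stranded, so reads of the pair cannot be told apart there. Reads found ambiguous between genes, 2.2% to 2.7% per library, were left out of the counts of every gene.

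Gdf10 and Hopx are markers of Bergmann glia in the adult cerebellum. Gdf10 (ENSMUSG00000021943; NCBIM37 chr14:34736773-34749700, plus strand) encodes a secreted ligand of the bone morphogenetic protein family, and Hopx (ENSMUSG00000059325; NCBIM37 chr5:77515468-77544186, minus strand) a small homeodomain protein that does not itself bind DNA. Gdf10 was at 6.99, 5.68, 6.34 and 5.56 TPM in wild-type cortex and at 188.4, 212.3, 187.4 and 210.6 TPM in wild-type cerebellum (mice in the same order). It was the lowest of the 10 transcripts in every cortex library and yet detected there with 145 to 208 counts, against 5347 to 6232 in cerebellum. The log2 fold change was 4.87 (SE 0.10, adjusted p = 1.5e-11), a 29.2-fold higher level and the largest of the 10. Hopx was at 34.7, 30.92, 34.13 and 40.23 TPM in wild-type cortex and at 170.1, 158.9, 128 and 144.2 TPM in wild-type cerebellum. Its groups did not overlap, and the log2 fold change was 1.95 (SE 0.11, adjusted p = 4.4e-08). Gm15830 on the opposite strand shares 19.5% of the Hopx exon bases, with the same limit.

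Further lists, chosen like the 10 genes with earlier results of these data known, are given beside the shares of all genes in wild type, of which 34.7% passed as higher and 33.1% as lower, and 10.5% were called as higher and 14.2% as lower. Of 10 other genes known from Bergmann glia, 10 were higher in wild-type cerebellum and 8 were called, with a median log2 fold change of 1.93 against 0.02 over all genes. The largest differences were in Dao, an oxidase of D-amino acids, with 9.15 (adjusted p = 6.4e-12), and A2m, a protease inhibitor, with 5.52 (adjusted p = 3.2e-11). Gli1, a target of hedgehog signalling, followed with 2.72 (adjusted p = 3.3e-08). Dao was at 0.233 ± 0.0972 TPM in wild-type cortex (SD, n = 4) and did not enter the cortex genotype test. The size of its difference thus rests on a value near 0. Lists of more general astrocyte genes were split. Of 10 genes of glutamate, GABA and amino acid handling, 2 were higher, 2 were lower and 6 did not pass, and the 1 called gene, the glycine transporter Slc6a9, had a log2 fold change of 1.58 (adjusted p = 1.4e-06). Of 14 astrocyte transcription factors and receptors, 4 were higher and 9 lower. Those called as higher were Gpr37l1 with 1.55, the endothelin receptor Ednrb with 1.38 and Nfia with 1.07. The largest called as lower were Emx2 with -7.47, Lhx2 with -6.87 and the Notch target Hes5 with -2.63. In wild-type cerebellum Emx2 was at 0.0951 ± 0.156 TPM and Lhx2 at 0.614 ± 0.765 TPM (SD, n = 4). The sizes of their differences thus rest on values near 0. Of 20 genes of astrocyte metabolism, lipids and secreted products, 7 were higher and 11 lower, among them Agt, the precursor of angiotensin, with 3.75 and Mfge8, an opsonin, with -1.65. Of 12 tested genes of reactive astrocytes, 2 were higher and 3 lower. Among them were the intermediate filament gene Vim with 2.05 and the protease inhibitor Serpina3n with -2.13. Lcn2 of that list did not pass and varied widely among wild-type mice. It was at 22.4 ± 25.1 TPM in wild-type cortex and 23.5 ± 24.3 TPM in wild-type cerebellum (SD, n = 4). In A391T mice it averaged 0.174 and 0.231 TPM, and it did not enter the genotype tests.

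Markers of other cells moved with region too. Of 6 microglia markers 6 were lower in wild-type cerebellum, with a summed level of 440 to 488 TPM in cortex and 151 to 162 TPM in cerebellum, and 3 of 3 oligodendrocyte precursor markers were lower. Of 6 endothelial markers 1 was lower and 5 did not pass, and 4 of 6 markers of meninges and fibroblasts were higher. Of 7 general neuron markers 2 were higher and 4 lower. The part of these cells in the values of the 10 genes was not tested.

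**Figure D3:**
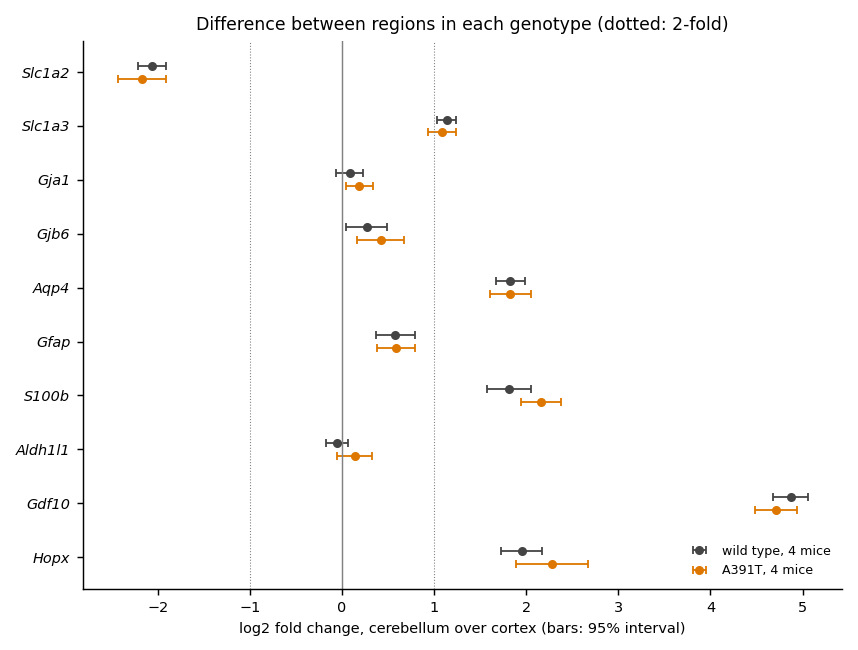
Log2 fold change of cerebellum over cortex for each gene in wild-type and in A391T mice (4 mice each), with 95% intervals; dotted lines mark 2-fold. In both genotypes Slc1a2 lay below -1, Slc1a3, Aqp4, S100b, Gdf10 and Hopx lay above 1, and the intervals of the genotypes overlapped for each gene.

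In A391T mice the same 6 genes were called in the same directions, where 24.7% of all genes were called, and 9 of 10 passed the adjusted p where 62.8% of all genes did. Libraries of the regions did not overlap for 9 of 10 genes, as for 61.8% of all genes, the exception being Gja1. Slc1a2 was at 648.9, 649.1, 737.7 and 578.2 TPM in CTX445, CTX446, CTX461 and CTX462 and at 109.2, 155.6, 188.9 and 172.2 TPM in CBLM445, CBLM446, CBLM461 and CBLM462 of the same mice, again without overlap. Its log2 fold change was -2.17 (SE 0.13, adjusted p = 3.6e-07). Gdf10 was at 5.32, 5.22, 6.24 and 6.03 TPM in A391T cortex and at 131.5, 187.7, 148.8 and 177 TPM in A391T cerebellum, with a log2 fold change of 4.71 (SE 0.12, adjusted p = 1.2e-09). S100b (2.16), Hopx (2.28), Aqp4 (1.83) and Slc1a3 (1.09) were higher in A391T cerebellum with adjusted p values from 8.1e-08 to 4.8e-06. Without CBLM445 the log2 fold change of Hopx was 2.05 and that of S100b 2.04. Gfap had 0.59 (adjusted p = 7.8e-04), Gjb6 0.42 (adjusted p = 0.019) and Gja1 0.19 (adjusted p = 0.045). In these 4 mice neither Gjb6 nor Gja1 passed without CTX445, CTX446 or CTX462, with adjusted p from 0.051 to 0.14. Gja1 also did not pass without CBLM446, CBLM461 or CBLM462, and with edgeR's exact test (adjusted p = 0.058) or relative log expression (RLE) size factors (adjusted p = 0.054). The difference of these region effects between the genotypes passed for 0 of 10 genes and for 0 of 16589 genes. At an unadjusted p under 0.05 it counted 0 of 10 genes against 4.85% of all genes, the smallest p in edgeR's test being 0.051 for S100b, and 0 of 10 passed with DESeq2 or limma-voom. Under the names of the RPKM table, 0 of 10 passed, with an adjusted p of 0.50 or more, and 4 of 10 had an unadjusted p under 0.05, where 9.51% of all genes did. These were Hopx with a difference of 0.71, Gjb6 with 0.38, Gfap with 0.30 and Slc1a2 with -0.29.

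Among the other genes, Slc1a3 ran from 213.7 to 253.9 TPM in A391T cortex and from 446.2 to 579.1 TPM in A391T cerebellum. Aqp4 ran from 55.12 to 68.91 TPM in cortex and from 177.3 to 279.6 TPM in cerebellum, its lowest cerebellum value being that of CBLM445. Gfap ran from 100.3 to 140.7 TPM and from 179.3 to 218.3 TPM in the same order. The regions stood clear of each other for these 3 genes. Gjb6 ran from 70.57 to 100.2 TPM in A391T cortex and from 103.5 to 130.3 TPM in A391T cerebellum, a narrow gap. Gja1 ran from 390.1 to 480.3 TPM and from 457.3 to 558 TPM, which overlapped. Aldh1l1 ran from 63.61 to 72.76 TPM and from 77.14 to 93.13 TPM, without overlap. Its fitted log2 fold change was 0.14 (95% interval -0.06 to 0.33, adjusted p = 0.25), and 0.03 without CBLM445 (adjusted p = 0.57 in edgeR).

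Over all 8 mice 6 of 10 genes were called and 9 passed, where 25.2% and 74.4% of all genes did, and the libraries of 7 of the 10 did not overlap between the regions, as for 47.7% of all genes. Aldh1l1 was the gene that did not pass, with a log2 fold change of 0.05 (SE 0.06, adjusted p = 0.46). The summed level of the 10 genes was 2020 ± 116 TPM in cortex (range 1898 to 2263) and 3703 ± 210 TPM in cerebellum (range 3368 to 3948) (SD, n = 8). S100b made up 15.1% to 20.7% of that sum in cortex and 37% to 49.2% in cerebellum, and Slc1a2 27.5% to 34.4% in cortex and 2.77% to 5.58% in cerebellum.

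The order of the genes by TPM differed between the regions. In cortex the means over 8 mice ran from Slc1a2 (641 TPM) over Gja1 (422), S100b (348), Slc1a3 (226), Gfap (121), Gjb6 (87.1), Aldh1l1 (70.7), Aqp4 (59.2) and Hopx (37.6) to Gdf10 (5.92). Libraries overlapped in 5 of the 9 neighbouring pairs, which were Gja1 with S100b, Gfap with Gjb6, Gjb6 with Aldh1l1, Aldh1l1 with Aqp4, and Aqp4 with Hopx. In cerebellum S100b came first (1512 TPM), followed by Slc1a3 (534), Gja1 (507), Aqp4 (230), Gfap (198), Gdf10 (180), Hopx (179), Slc1a2 (162), Gjb6 (120) and Aldh1l1 (79.3). Here 6 of 9 neighbouring pairs overlapped, and S100b, the step from Gja1 to Aqp4, and Aldh1l1 stood clear of their neighbours. With exon lengths of the annotation Gja1 was at 203 TPM in cortex and ranked 4 there, with Slc1a3 and Gfap clear of it on either side. In cerebellum Gja1 was then at 244 ± 21.5 TPM instead of 507, beside Hopx at 243 ± 63.0 and Aqp4 at 224 ± 30.6 (SD, n = 8), and its libraries overlapped those of Hopx, so that the step below Gja1 was lost and the clear step lay between Slc1a3 and Gja1. Hopx ranked 4 there, while Slc1a2 remained first in cortex and eighth in cerebellum.

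The A391T mutation was compared with wild type within each region, a comparison that the labels imply. In cortex 0 of 10 genes passed, where 0.0126% of 15815 genes did, and 0 of 10 had an unadjusted p under 0.05, where 4.73% of all genes did. DESeq2 and edgeR's exact test also passed 0 of 10. Groups overlapped for 10 of 10 genes, where 3.24% of all genes did not overlap. S100b, for instance, was at 356.5, 338.8, 365.2 and 334.9 TPM in A391T cortex, within the wild-type range of 305.6 to 436.3 TPM. The log2 fold changes ran from -0.25 for Gjb6 (95% interval -0.53 to 0.03) to 0.18 for Hopx (95% interval -0.06 to 0.43). All 10 intervals lay inside a 2-fold change in either direction. Under the names of the RPKM table, 0 of 10 genes passed as well, with an adjusted p of 0.88 or more, but 3 of 10, Gfap, Hopx and Gjb6, had an unadjusted p under 0.05, where 4.72% of all genes did. Gfap was then at -0.34 (unadjusted p = 3.4e-04 in edgeR) instead of -0.01, Hopx at -0.30 instead of 0.18, Gjb6 at -0.32 instead of -0.25 and Aqp4 at -0.11 instead of 0.13.

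In cerebellum 0 of 10 genes passed the adjusted p for genotype with edgeR, DESeq2 or edgeR's exact test, and 0% of 15668 genes passed with edgeR. At an unadjusted p under 0.05 there were 3 of 10 genes, where 8.55% of all genes reached that, and groups did not overlap for 2 of 10 genes, where 7.83% of all genes did not. Hopx was at 282.3, 187.4, 176.5 and 185.8 TPM in CBLM445, CBLM446, CBLM461 and CBLM462 of A391T mice, all above the wild-type range of 128 to 170.1 TPM. Its log2 fold change was 0.54 (SE 0.18, adjusted p = 0.53 in edgeR's quasi-likelihood test). S100b was at 1942, 1560, 1599 and 1557 TPM in A391T cerebellum, all above the wild-type range of 1262 to 1489 TPM, with a log2 fold change of 0.35 (SE 0.12, adjusted p = 0.53 in edgeR). Gdf10 was lower by a log2 fold change of -0.26 (SE 0.10, adjusted p = 0.53 in edgeR), and its groups overlapped. CBLM445 had the highest Hopx and S100b values of the A391T group, and without it Hopx had a log2 fold change of 0.30 and S100b of 0.22, both with an adjusted p of 0.33 in edgeR. Gjb6 was then at -0.19 instead of -0.07, Aqp4 at 0.24 instead of 0.15 and Aldh1l1 at 0.06 instead of 0.17, and 5 of 10 genes had an unadjusted p under 0.05, where 11.8% of all genes did, with 0 of 10 passing the adjusted p. Under the names of the RPKM table Hopx was at 0.41 (adjusted p = 0.55), S100b at 0.23 (adjusted p = 0.55) and Gdf10 at 0.05 (adjusted p = 0.87), so that the sign of Gdf10 turned. Slc1a2 was then at -0.27 (adjusted p = 0.55) instead of -0.05, and was the 1 of 10 genes with an unadjusted p under 0.05, where 7.82% of all genes had one. Oligodendrocyte markers, which bear on S100b, summed to 4440 to 6070 TPM in A391T and 3930 to 5600 TPM in wild-type cerebellum, and their part in the difference was not tested. The other 7 genes had log2 fold changes from -0.07 for Gjb6 to 0.17 for Aldh1l1.

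The mice whose library names were the same in the count files and the RPKM table, 2 of each genotype and CBLM445 among their libraries, gave larger genotype values for some genes, and 0 of 10 passed the adjusted p in either region or for the interaction. In cortex Gjb6 was at -0.58 (adjusted p = 0.86 in edgeR) and Gfap at -0.35 (adjusted p = 0.90), the 2 of 10 genes with an unadjusted p under 0.05, where 5.29% of all genes had one. In cerebellum Hopx was at 0.92 and S100b at 0.58, both with an adjusted p of 0.47 in edgeR. They were the 2 of 10 with an unadjusted p under 0.05, where 8.7% of all genes had one. Slc1a2 was there at -0.33, against -0.05 with all mice, and Aldh1l1 at 0.30, against 0.17. The interaction was 1.03 for Hopx, against 0.34 with all mice, and 0.69 for S100b, against 0.36, both with an adjusted p of 0.54, and these were the 2 of 10 with an unadjusted p under 0.05, where 8.06% of all genes had one. With all mice but without CBLM445 the interaction was lower, at 0.11 for Hopx (adjusted p = 0.94 in edgeR) and 0.24 for S100b (adjusted p = 0.92), and 0 of 10 genes had an unadjusted p under 0.05, where 5.06% of all genes had one.

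**Figure D4:**
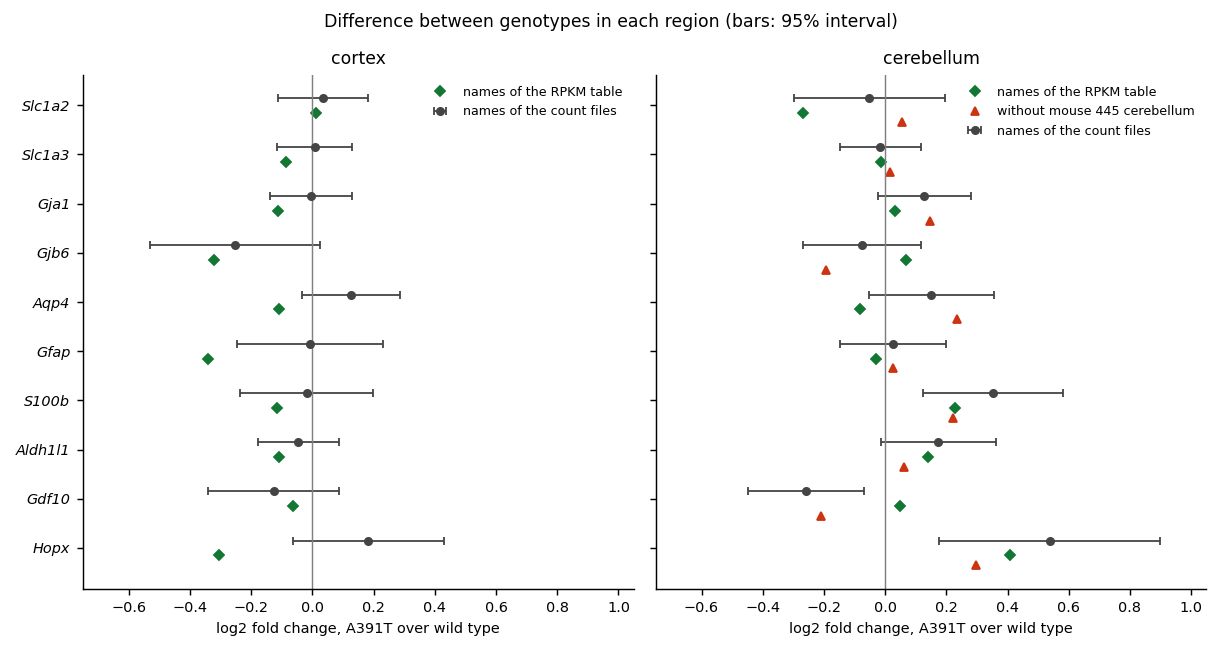
Log2 fold change of A391T over wild type for each gene in cortex and cerebellum under the names of the count files (circles, with 95% intervals) and under the names of the RPKM table (diamonds), and in cerebellum without CBLM445 (triangles). None of the 10 genes passed the adjusted p in any of these, and the sign depends on the names for Aqp4 in both regions, for Hopx and Slc1a3 in cortex and for Gfap, Gjb6 and Gdf10 in cerebellum.

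How far the 10 genes varied together within a region was described with no test. Levels for this were log2 CPM, that is counts scaled to the same library total and by TMM factors. After subtracting the region mean, the 45 pairs of genes had a median Pearson correlation of 0.33 over the 8 cortex libraries. The range was -0.53 to 0.87, with 34 of 45 above 0. Over the 8 cerebellum libraries the median was -0.03 (range -0.84 to 0.99), with 21 of 45 above 0. Without CTX445 and CBLM445 the medians were 0.28, with 34 of 45 above 0, and 0.02, with 25 of 45 above 0. These correlations are descriptions, and the points share library depth and composition. S100b and Hopx were the most alike in cerebellum, at 0.99 over 8 libraries and 0.97 without CBLM445, and were at 0.51 in cortex. Slc1a2 and Hopx were at -0.81 in cerebellum over 8 libraries and at -0.31 without CBLM445. The mean absolute deviation of the 10 genes from their region mean was 0.30 log2 units in CBLM445, 0.19 in CTX480 and 0.07 to 0.16 in the others. In CBLM445 Hopx deviated by 0.83, S100b by 0.51 and Aldh1l1 by 0.38, and Slc1a2 by -0.41 and Gdf10 by -0.30. The summed level of 5 Purkinje cell markers was 7830 TPM in that library and 4640 to 5140 TPM in wild-type cerebellum. In the other A391T cerebellum libraries it was 4926 to 5311 TPM. That of 5 granule cell markers was 2115 TPM in CBLM445 and 2600 to 2710 TPM in wild-type cerebellum. It was 2491 to 2780 TPM in the other A391T cerebellum libraries. The part of this in the deviations was not tested.

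**Figure D5:**
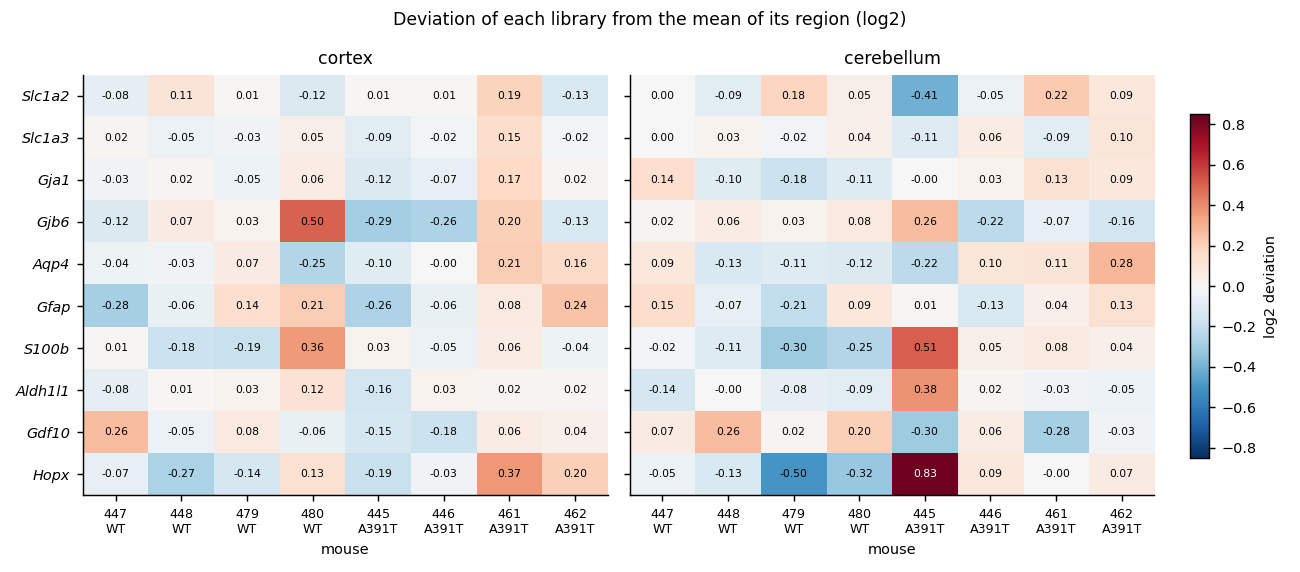
Deviation of each library from the mean of its region for the 10 genes and 8 mice in cortex and cerebellum. Units are log2 of CPM scaled by TMM factors, red above and blue below. CBLM445 deviates most, from 0.83 for Hopx to -0.41 for Slc1a2, followed by CTX480 with 0.50 for Gjb6.

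Genes whose log2 CPM followed the 10 genes most closely over the 16 libraries after subtracting region means, among 14410 others with a mean of 1 CPM or more, were Cfl2 for S100b (r = 0.98), Mlc1 for Hopx (r = 0.95), Gm17480 for Aldh1l1 (r = 0.95), Opcml for Slc1a2 (r = 0.94), Pard3b for Aqp4 (r = 0.92, with Ednrb at 0.88) and Tmem176a for Gjb6 (r = 0.91). The nearest genes were less close for Gja1 (Npl, r = 0.88), Gfap (Cabp7, r = 0.87), Slc1a3 (Megf11, r = 0.84) and Gdf10 (Porcn, r = 0.82). These values include CBLM445. Over the 15 other libraries, a setting chosen after seeing the data, the same gene remained nearest for 3 of 10 genes, S100b (r = 0.97), Aqp4 (r = 0.91) and Gfap (r = 0.87). Gm17480 was at r = 0.812 for Aldh1l1, where Ang was nearest (r = 0.895), and Mlc1 at 0.888 for Hopx, where Cd9 was nearest (r = 0.938). Opcml was then at 0.875 for Slc1a2, close to the nearest, Cage1 (r = 0.882), and Porcn at 0.761 for Gdf10, where Snx21 was nearest (r = 0.845). Without the subtraction the values mostly restate the difference between regions, and the nearest genes over 16 libraries were Rgl3 for Gdf10 (r = 0.999), Opcml for Slc1a2 (0.998), Megf11 for Slc1a3 (0.998), Ccndbp1 for S100b (0.996), Gprc5b for Aqp4 (0.994) and Sri for Hopx (0.993).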

How the data were processed

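Per the labels and the study's methods, the authors sequenced polyA-selected directional libraries, mapped the reads to mm9 using STAR and counted them per gene with HTSeq. The deposited read counts of 16 libraries were used, without the 10.2% to 13.2% of reads on no gene. The deposited RPKM table, made by the authors from the same libraries, gave gene names, lengths and the check of library names. Counts were tested in edgeR 4.0.16 (filterByExpr, TMM, glmQLFit, glmQLFTest) between the groups compared, and with all 16 libraries for the pooled and interaction fits. A gene passed at an adjusted p under 0.05 and was called with at least a 2-fold change. Ratios of 2 genes were compared within mice by exact sign-flip permutation. Alternatives used DESeq2 1.42.0, limma 3.58.1, edgeR's exact test, other scalings, filters and library names, the mouse as a block, and libraries left out in turn. Cortex and cerebellum libraries of the same number come from the same mouse, and their deviations from group means correlated across genes between -0.14 and 0.19. Libraries of different mice of the same genotype gave -0.24 to 0.21, so same-mouse libraries were not more alike by this measure. Scripts were tested on simulated data. All 10 genes were tested in every comparison. The text names the closest of the 3 genes most correlated with each, and up to 3 called genes per direction from each further list. The genes and lists were chosen with earlier results of these data known. Gene coordinates are from GENCODE on NCBIM37, and 9 of the 10 genes matched a RefSeq promoter in GRCm38.p6. Cux2, a cortical marker with more than 1 entry, was left out.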

Additional observations from a re-analysis of the deposited data

Results flagged for a closer look

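Within groups of 4 libraries, 3 values lay farther from the others than Dixon's 95% limit allows, and all 3 came from CBLM445 or CTX445, libraries of 1 mouse. S100b was at 1942 TPM in CBLM445, the highest of the A391T group, where the others were at 1557 to 1599 TPM. Hopx was at 282.3 TPM in the same library, where the others were at 176.5 to 187.4 TPM. Aldh1l1 was at 63.61 TPM in CTX445, the lowest of the A391T group, where the others were at 71.25 to 72.76 TPM. The 10 genes in 4 groups gave 40 such checks, and chance alone would mark about 1 in 20. The cause was not tested.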

How the results depend on the processing

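The 6 genes called by region were called under every alternative run, and none of the 10 genes passed for genotype or interaction under any of them. Most signs that turned were those of differences near 0. Without CTX445 and CBLM445, a setting chosen after seeing the data, Aldh1l1 was at -0.010 by region in A391T and -0.028 over 8 mice, genotype values turned to 0.069 for Gfap and 0.030 for Gja1 in cortex and to 0.056 for Slc1a2 and 0.016 for Slc1a3 in cerebellum, and the interaction to -0.058 for Gfap, 0.0097 for Slc1a2 and -0.0062 for Gjb6. The names of the RPKM table turned cortex values of Aqp4 (-0.11), Slc1a3 (-0.085) and Hopx (-0.30), cerebellum values of Gfap (-0.030), Aqp4 (-0.082), Gjb6 (0.068) and Gdf10 (0.049), and interactions of Slc1a3 (0.062) and Gdf10 (0.10), which were 0.061 and 0.11 with the replicate block added. Only mice with matching names gave -0.078 for Slc1a3 and -0.13 for Hopx in cortex, -0.0035 for Gfap in cerebellum and 0.029 for the Slc1a3 interaction. These stand beside the larger values of Hopx, S100b, Gjb6, Gfap, Slc1a2 and Aldh1l1 given above. A single model of 16 libraries gave 0.0008435 for Gja1 in cortex, and library totals 0.062 for Aldh1l1 by region in wild type. The Slc1a3 to Slc1a2 difference was 3.20 in wild-type and 3.27 in A391T mice alone, where 4 pairs allow no exact p below 0.12. The Gjb6 to Gja1 difference was 0.21 and 0.23 there, and 0.22 with p = 0.065 in the permutation test without the pairing.

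Leaving out 1 mouse at a time gave 0.16 to 0.25 for the Gjb6 to Gja1 difference. Leaving out 1 library at a time gave -0.020 to 0.067 for Aldh1l1 over 8 mice. Genotype ranges in cortex were -0.0937 to 0.072 for Gfap, -0.061 to 0.030 for Gja1, -0.086 to 0.12 for S100b, -0.022 to 0.086 for Slc1a2 and -0.040 to 0.034 for Slc1a3. In cerebellum they were -0.045 to 0.08 for Gfap, -0.15 to 0.056 for Slc1a2 and -0.054 to 0.016 for Slc1a3. For the interaction they were -0.0597 to 0.1 for Aqp4, -0.061 to 0.11 for Gfap, -0.19 to 0.016 for Slc1a2 and -0.073 to 0.017 for Slc1a3. The mouse as a replicate block raised the genes passing by region in wild type from 7 to 8, by Gjb6, and changed no other call; edgeR's exact test and no filter on low counts each also gave 8, and library totals 9. The cause of these changes was not tested. The lowest counts of the 10 genes were those of Gdf10 in cortex, at 145 to 211.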
